A study of Homo sapiens with 12 samples.

Results

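The untreated cells of the human line K562 were described across genes in 4 of the 12 libraries of the series. These were the 4 libraries labelled as untreated controls. The other 8 libraries came from cells given 2 mM alpha-ketobutyrate or 2 mM pyruvate for 24 h. They entered only 1 scaling alternative and the choice of rows, which have at least 10 counts over the 12 libraries. K562 is an established line from a patient with chronic myelogenous leukaemia, and its cells carry the BCR-ABL1 fusion, an always active tyrosine kinase. Per the labels, the cells grew in RPMI-1640 medium with 5% fetal bovine serum and 2 mM glutamine, and messenger RNA was captured on poly-T beads before random-primed library synthesis. The untreated group therefore carried no added 2-oxo acid, and it shared the line, medium and library protocol with the other groups. Results from a single line describe that line only.

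As background, red cell precursors make haemoglobin from alpha-like and beta-like globin chains and switch from embryonic to fetal to adult genes during development. They also build haem in the mitochondrion and cytosol, take up iron through the transferrin receptor, and assemble a spectrin-based membrane skeleton. K562 cells are known as an erythroleukaemia model that makes embryonic and fetal globins. Many metabolic enzymes are encoded by several related genes, or paralogues, and a cell type usually relies on some of them more than on others.

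The total count was 18102896, 16425111, 18420192 and 16718530 in libraries 1 to 4. Levels are given as CPM, the count scaled to a library total of 1000000, or as CPM per kilobase of transcript where genes are compared with each other. Libraries were compared over 8868 genes with a mean of at least 10 CPM, counts in all 4 libraries and a known GC content. Across these, Pearson correlations of log2 CPM between libraries, which share cell line and protocol, ran from 0.988 to 0.995, as a description. Library 4 stood farthest from the rest: it held the value farthest from the mean for 46.8% of these genes, against 13.3% to 24.7% for the others. Its deviation also moved with GC content, by 0.09 log2 units per 10 percentage points of GC, against -0.06 in library 1. Separate cultures are not mentioned in the labels, and the spread between the 4 libraries may be technical.

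The 5 marker genes given for the line were all expressed. HBG1 and HBG2, the fetal gamma-globin genes, had 3117 ± 237 and 5183 ± 309 CPM (SD, n = 4). HBE1, the embryonic epsilon-globin gene, had 2135 ± 80.2 CPM. HBA1, an alpha-globin gene, had 1601 ± 41.7 CPM, and GATA1, the main erythroid transcription factor, had 147 ± 17.3 CPM. GATA1 was lowest in library 1 at 127 CPM, reached 152 and 142 CPM in libraries 2 and 3, and was highest in library 4 at 168 CPM, an order of the libraries that several other genes below shared. All 5 markers were thus expressed in every library. They are globin genes and an erythroid transcription factor, so they do not by themselves identify the line.

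Of the 17786 genes in the table, 11827 had at least 1 CPM in all 4 untreated libraries, and 159 had no count in any of them. The 10 most abundant genes held 4.98%, 5.59%, 5.31% and 6.11% of the counts in libraries 1 to 4, a mean of 5.50% ± 0.479. The 1000 most abundant genes held 49.9% ± 0.122. The libraries had the same order in the share of the 13 mitochondrially encoded mRNAs, which was 3.13%, 4.0%, 3.6% and 4.72%. Several of these mRNAs, such as MT-CO1 and MT-ND4, are among the 10 most abundant genes, so the shares overlap. Cytosolic ribosomal protein genes (77 measured) held a steadier 5.93% ± 0.101, and the 10 globin genes held 1.29% ± 0.0536.

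Translation, respiration and globin genes led the list by CPM. EEF1A1, a translation elongation factor, had the highest mean, with 10530, 10357, 10380 and 10360 CPM in the 4 libraries. MT-CO1, a cytochrome c oxidase subunit encoded in the mitochondrion, had 8333, 9683, 9212 and 11644 CPM. EEF1A1 was nearly even across the libraries, while MT-CO1 was lowest in library 1 and highest in library 4. HBG2 was the fourth gene by mean CPM and TFRC, the transferrin receptor that brings iron into the cell, was the tenth, with 3518, 3301, 3448 and 2934 CPM. The cytosolic chaperone HSP90AB1 had 4208 ± 13.5 CPM and the tubulin gene TUBA1B 3111 ± 22.1 CPM, and both varied little.

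Per kilobase, HBG2 had the highest mean of all named genes. Its level was 8908, 8378, 8720 and 7761 CPM per kilobase. MT-CO2, another oxidase subunit, had 5036, 6398, 5760 and 8105 CPM per kilobase, and MT-ATP6, an ATP synthase subunit, had 5187, 6911, 6094 and 7854. HBG2 was above both in libraries 1 to 3 and below both in library 4, so its lead over them did not hold in every library. HBG1 (4001 ± 304), HBA1 (2775 ± 72.2) and HBE1 (2325 ± 87.4 CPM per kilobase) were also among the first 20. RPLP0, EEF1A1 and HBE1 were neighbours in this order at 2347 ± 100, 2343 ± 18.7 and 2325 ± 87.4 CPM per kilobase, closer than their spread. MTRNR2L12, a nuclear gene similar to mitochondrial ribosomal RNA, had 2109 ± 451 CPM per kilobase, and reads from that RNA could not be told apart from its own.

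**Figure D1:**
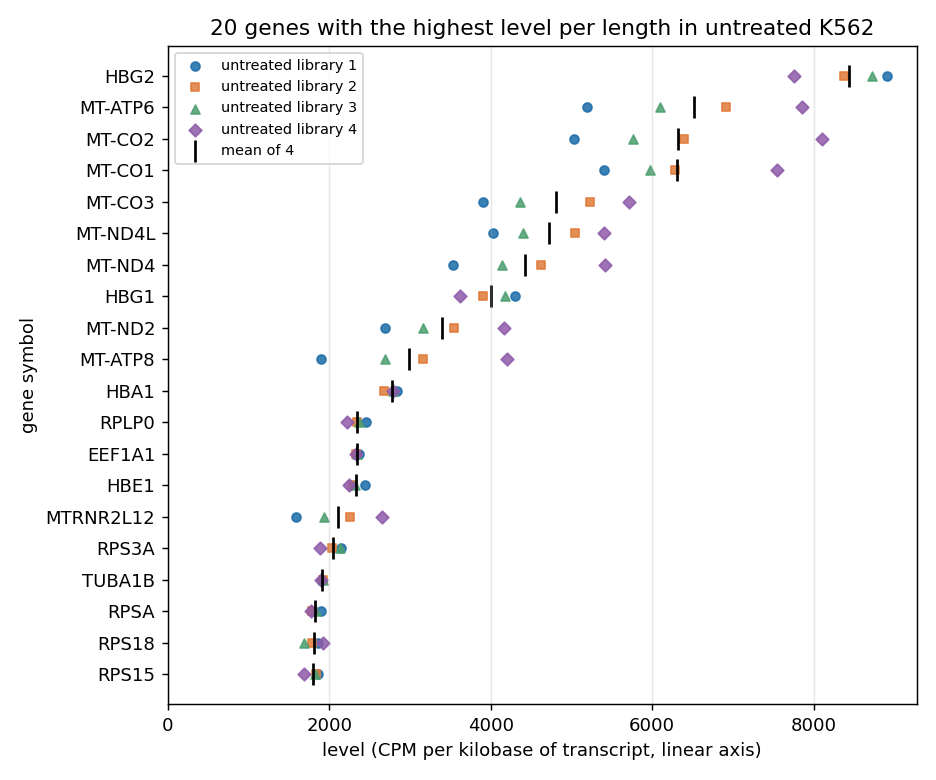
Level in CPM per kilobase (linear horizontal axis) of the 20 named genes with the highest mean, with 1 symbol for each of the 4 untreated libraries and a black line at the mean. HBG2 led in libraries 1 to 3, while the mitochondrially encoded genes spread most, with library 1 low and library 4 high.

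The 13 mitochondrially encoded mRNAs moved together between the libraries. All 13 were lowest in library 1 and 12 were highest in library 4, and the median ratio of library 4 to library 1 was 1.55 (1.33 to 2.21). The fetal globins and TFRC ran the other way: HBG2, HBG1 and TFRC were highest in library 1 and lowest in library 4. What separated the libraries was not tested.

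Among the beta-like globin genes the fetal pair dominated. HBG1 and HBG2 together gave 84.2%, 84.0%, 84.5% and 83.3% of the beta-like signal per kilobase in the 4 libraries, a mean of 84.0% ± 0.499. HBG2 alone gave 57.0% ± 0.257 and HBG1 27.0% ± 0.463. The embryonic HBE1 gave 15.7% ± 0.493. HBD, the minor adult delta-globin gene, gave 0.242% ± 0.00793 at 28.9 ± 0.919 CPM. HBB, the main adult beta-globin gene, had 0.608, 1.58, 0.977 and 0.957 CPM, 71 counts in all. HBB was below HBD in every library. HBG1 and HBG2 are near-identical in sequence, so their separate levels depend on how the authors' counting split shared reads. An unnamed identifier that overlaps both genes in the annotation had 1035 ± 40.9 CPM and is not part of these shares.

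The alpha-like cluster was less one-sided. The embryonic zeta-globin gene HBZ had 583, 635, 632 and 738 CPM and gave 21.7% ± 1.39 of the alpha-like signal per kilobase. HBA1 and HBA2 together gave 77.4% ± 1.43, and HBQ1, the theta-globin gene, 0.911% ± 0.048. The genes HBA1 and HBA2 encode the same protein. HBA2 had 119, 154, 160 and 217 CPM against 1640, 1542, 1611 and 1611 CPM of HBA1. HBA2 therefore varied much more between libraries than HBA1, and their split is uncertain for the same reason as that of HBG1 and HBG2. HBM, the mu-globin gene, had 3 counts in the 4 libraries together. The summed beta-like signal was 4.07, 3.83, 3.87 and 3.26 times the alpha-like signal per kilobase, a mean of 3.76 ± 0.347 that was lowest in library 4. The shares moved with the transcript length used: with the merged exons of each gene, HBG1 and HBG2 gave 77.7% of the beta-like signal and HBZ 28.4% of the alpha-like signal.

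**Figure D2:**
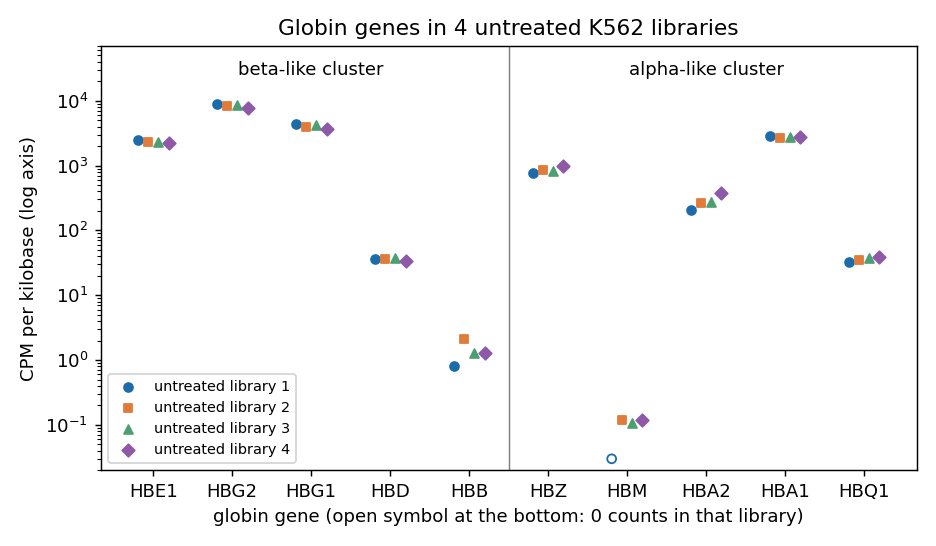
Level of the 10 globin genes in CPM per kilobase (log vertical axis) with 1 symbol per untreated library and an open symbol at the bottom where a library had 0 counts. HBG2, HBG1 and HBE1 lie far above HBD and HBB, and HBA1 and HBZ above HBA2.

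Regulators of the globin switch were strongly unequal. BCL11A, a repressor of fetal globin in adult cells, had 17 counts in all, with 0.166, 0.244, 0.38 and 0.179 CPM. The RNA-binding proteins of the fetal programme were expressed: LIN28B had 249 ± 18.7 CPM, IGF2BP1 306 ± 17.3 CPM and IGF2BP3 174 ± 3.5 CPM. LIN28A, the paralogue of LIN28B, had 3.14 ± 0.123 CPM, and HMGA2, a chromatin protein of the same programme, 0.8 ± 0.251 CPM. CHD4, the remodelling ATPase of the NuRD complex, had 632, 632, 628 and 626 CPM, a spread of 2.98 CPM. Another repressor of fetal globin, ZBTB7A, had 41.7 ± 7.48 CPM. In all, 12 of the 15 regulators had at least 10 CPM, and BCL11A and HMGA2 were below 1 CPM. Of all 17786 genes in the table, 9124 had at least 10 CPM.

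All 15 erythroid transcription factors of the list had at least 10 CPM, with a median of 147 CPM, against a median of 11.4 CPM over all 17786 genes, of which 9124 had at least 10 CPM. NFE2, a partner of the small Maf proteins at globin enhancers, led per kilobase at 137 ± 3.78 CPM per kilobase, ahead of STAT5A (110 ± 1.19), which carries signals of the erythropoietin receptor, and GATA1 (98.4 ± 11.5). KLF1, the activator of adult beta-globin, had 71.0, 80.5, 72.2 and 88.2 CPM, while HBB stood near 1 CPM. TAL1, a partner of GATA1, had 233 ± 4.64 CPM.

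Haem synthesis and iron handling were also broadly expressed. All 15 measured haem genes had at least 10 CPM, as did 9124 of the 17786 genes in the table. UROD, which acts on the closed tetrapyrrole ring, had 437 ± 10.8 CPM and FECH, which inserts the iron, 277 ± 7.75 CPM. The first step can be made by ALAS2, the erythroid enzyme, or ALAS1, the general form. ALAS2 had 78.7, 74.3, 84.0 and 73.0 CPM and ALAS1 had 28.1, 32.6, 27.5 and 31.6 CPM, so that ALAS2 gave 75.6% ± 2.66 of their signal per kilobase. Of 11 iron genes, 10 had at least 10 CPM. The ferritin light chain gene FTL had 1615 ± 34.4 CPM per kilobase and the heavy chain gene FTH1 813 ± 69.2. HAMP, the liver hormone hepcidin, had 8 counts.

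The red cell membrane and surface list was uneven, with 21 of 25 genes at 10 CPM or more, against 9124 of all 17786 genes. RHAG, the Rh-associated glycoprotein, led at 420 ± 19.1 CPM per kilobase and reached 851, 820, 849 and 771 CPM. SPTB, a spectrin chain, had 20.4 ± 0.3 CPM per kilobase, and the adaptor ANK1 had 43.9 ± 0.823. SLC4A1, the band 3 anion exchanger, had 2.24 ± 0.282 and EPB42, which binds it, 2.49 ± 0.29 CPM per kilobase, both below SPTB and ANK1. AHSP, the chaperone of free alpha-globin, had 34.0 ± 2.32 CPM per kilobase. CA2, a carbonic anhydrase of the mature red cell, had 43 counts, or 0.619 ± 0.0548 CPM, while CA1, another carbonic anhydrase, had 20.3 ± 0.789 CPM. ACKR1 and BCAM, carriers of the Duffy and Lutheran blood groups, were below 1 CPM at 0.316 ± 0.106 and 0.574 ± 0.21 CPM.

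To show what such genes share in sequence, RefSeq windows of 300 bases around their start sites (build GRCh38.p14) were searched on both strands for the GATA word AGATAA and for the CACCC word CCACACCC, which cannot overlap each other. Of 56 genes in the transcription factor, haem and membrane lists, 41 matched a window. The GATA word was in 15 of these 41 genes (36.6%, 18 of 62 windows or 29.03%), in 7.52% of 9323 genes with at least 1 CPM (5.71% of their windows) and in 12.4% of all 27305 genes with a window. By list it was in 8 of 15 membrane genes, 4 of 13 transcription factors and 3 of 13 haem genes. The 8 include RHD and RHCE, both with the word at -76, and GYPB and GYPE, so related genes are counted separately. The CACCC word was in 2 of the 41 genes (4.88%), close to 4.34% of expressed genes. A match is a description of the letters and not evidence of binding. Only these exact letters were searched, so a window without the word can hold similar ones, such as ttatca in the KLF1 window. Windows are printed for ALAS2 (chrX:55030928-55031227, minus strand), CPOX (chr3:98593562-98593861, minus strand) and EPB42 (chr15:43220969-43221268, minus strand), because they hold the GATA word in genes of very unequal level, and for KLF1 (chr19:12887152-12887451, minus strand) as an erythroid gene whose window holds neither word. Capitals mark the word, read 5′ to 3′ on the gene's strand, and the start site is the base at offset 0.
ALAS2: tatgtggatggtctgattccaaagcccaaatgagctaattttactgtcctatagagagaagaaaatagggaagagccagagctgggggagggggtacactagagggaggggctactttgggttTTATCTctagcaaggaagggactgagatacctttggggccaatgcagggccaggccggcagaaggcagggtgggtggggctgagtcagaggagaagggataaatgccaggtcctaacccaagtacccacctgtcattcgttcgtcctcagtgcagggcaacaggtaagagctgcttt
CPOX: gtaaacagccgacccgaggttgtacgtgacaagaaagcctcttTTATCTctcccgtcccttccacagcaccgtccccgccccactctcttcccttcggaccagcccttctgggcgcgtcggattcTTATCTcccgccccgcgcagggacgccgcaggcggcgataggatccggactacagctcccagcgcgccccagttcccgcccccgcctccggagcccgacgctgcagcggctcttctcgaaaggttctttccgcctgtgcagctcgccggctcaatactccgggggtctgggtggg
EPB42: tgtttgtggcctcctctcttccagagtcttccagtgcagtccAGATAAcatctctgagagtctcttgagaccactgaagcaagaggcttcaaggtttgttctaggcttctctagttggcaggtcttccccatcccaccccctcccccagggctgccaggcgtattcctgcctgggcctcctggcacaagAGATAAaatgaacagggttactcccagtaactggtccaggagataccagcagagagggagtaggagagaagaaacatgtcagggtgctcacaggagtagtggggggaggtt
KLF1: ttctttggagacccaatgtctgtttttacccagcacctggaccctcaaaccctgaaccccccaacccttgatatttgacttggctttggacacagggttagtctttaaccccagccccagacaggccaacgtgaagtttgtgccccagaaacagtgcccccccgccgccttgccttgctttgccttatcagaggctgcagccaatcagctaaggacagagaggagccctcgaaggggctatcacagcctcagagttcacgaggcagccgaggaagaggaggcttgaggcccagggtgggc
The ALAS2 word begins at -127 on the opposite strand. CPOX, which encodes coproporphyrinogen oxidase, has words at -207 and -125, both on the opposite strand, and 39.2 ± 2.17 CPM per kilobase, close to ALAS2 at 38.2 ± 2.45. EPB42 has words at -208 and -61 on the gene's own strand and only 2.49 ± 0.29 CPM per kilobase.

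Genes of other blood lineages were mostly low. Of the measured members, 4 of 11 megakaryocyte genes, 2 of 14 granulocyte and monocyte genes, 2 of 6 mast cell, basophil and eosinophil genes, 0 of 6 B cell genes and 0 of 11 T and NK cell genes had at least 10 CPM. Their medians were 1.5, 0.195, 0.724, 0.497 and 0.141 CPM. Over all 17786 genes the median was 11.4 CPM, and 9124 had at least 10 CPM. Genes without a row of their own, such as MPO, ELANE, PF4 and MS4A1, were not analysed here. In bulk RNA, a few cells of another type and a little RNA in every cell cannot be told apart.

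**Figure D3:**
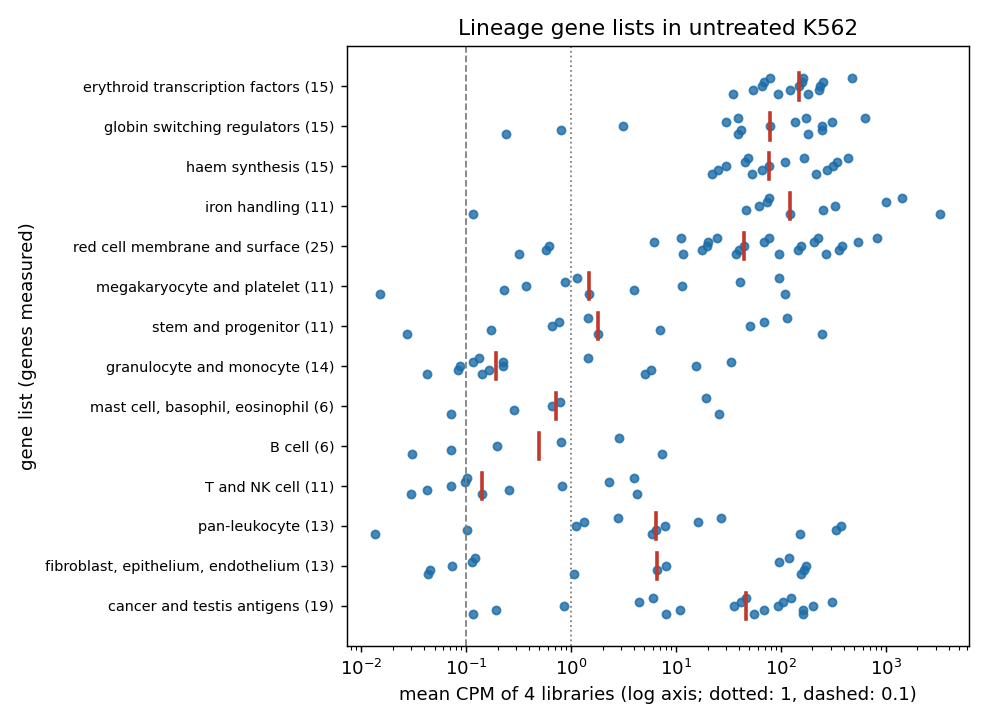
Mean CPM of 4 untreated libraries (log horizontal axis) for each measured gene of 14 lists, with a red line at each list's median. Erythroid, haem and iron lists sit mostly above 10 CPM, while the B cell and T and NK cell lists have no member there.

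Within the platelet lineage the levels did not run together. GP1BB, a subunit of the von Willebrand factor receptor, had 65.5, 102, 85.9 and 132 CPM, highest in library 4. TUBB1, the platelet tubulin, had 40.8 ± 1.43 CPM and RUNX1, a transcription factor of the lineage, 108 ± 4.75 CPM. The integrin genes that define the lineage were low, with ITGA2B at 3.96 ± 0.495 and ITGB3 at 1.5 ± 0.205 CPM. GP1BB had the widest spread of these, and its order over the libraries was that of the mitochondrially encoded mRNAs.

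Of the stem and progenitor genes, MYB (245 ± 9.1 CPM) and GATA2 (115 ± 7.6 CPM), both transcription factors of early blood cells, were expressed with MECOM (51.2 ± 1.84 CPM). The surface marker gene CD34 had 1.44, 0.731, 0.597 and 0.299 CPM, and KIT, the stem cell factor receptor, had 46 counts at 0.659 ± 0.0496 CPM. CD38 had 2 counts. The highest granulocyte and monocyte gene was LYZ, lysozyme, at 33.4 ± 2.86 CPM, and the eosinophil granule gene PRG2 had 19.5 ± 2.33 CPM.

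Absence was judged over the 4 libraries, where a count of 0 allows up to 0.0431 CPM (3 counts of the summed total). Of 190 measured genes in the blood lists, 46 (24.2%) had a mean below 1 CPM and 15 (7.89%) below 0.1 CPM. Of all 17786 genes in the table, 30.1% and 9.65% were that low. The 190 pool the mostly expressed globin, erythroid, haem, iron, red cell and leukaemia lists with those of other blood cells and HLA genes. Below 1 CPM were 0 of 15 erythroid transcription factors and 3 of 25 red cell genes. So were 9 of 14 granulocyte and monocyte genes and 4 of 6 mast cell, basophil and eosinophil genes. Among B cell genes 4 of 6 were, and among T and NK cell genes 8 of 11. Each row of the table has at least 10 counts over the 12 libraries, so a gene with fewer in the untreated ones is there through the other libraries, and genes without a row were not analysed. BCL2A1, an anti-apoptotic gene of myeloid and lymphoid cells, had no count in the 4 libraries. The leukocyte integrin chain ITGB2 had 1 count, and CD38, CD4 and CD79A had 2 each. NKG7, MS4A7 and HBM had 3 each, and EBF1, EPX, CD3E, CSF1R, CSF3R and IL7R had 5 to 7.

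Not every broad leukocyte gene was low. PTPRC, the CD45 phosphatase, had 152 ± 5.06 CPM, SPN, the sialophorin CD43, 376 ± 18.1 CPM and LCP1, an actin-bundling protein of blood cells, 335 ± 7.81 CPM. Against these stood CD44, a hyaluronan receptor, with 77 counts and 1.11 ± 0.0854 CPM. In antigen presentation, B2M, the light chain of class I molecules, had 302 ± 19 CPM. The peptide transporter gene TAP1 had 0.552, 1.28, 0 and 0 CPM, while its partner TAP2 had 15.1 ± 4.64 CPM. Whether counts of TAP1 lie on identifiers outside the annotation used was not tested. CD74, the class II invariant chain, had 20 counts. The classical class I heavy chain genes were not analysed here.

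Markers of other tissues were measured in the same way. Of 13 genes of the fibroblast, epithelium and endothelium list, 5 had at least 10 CPM, against 9124 of all 17786 genes in the table. These 5 were the keratins KRT8 (167 ± 14.9 CPM), KRT18 (174 ± 1.74) and KRT19 (119 ± 3.56), the adhesion gene EPCAM (96.5 ± 1.54) and VIM (154 ± 3.89), an intermediate filament of many cultured cells. The epithelial cadherin gene CDH1 had 8 counts, and the fibroblast gene DCN and endothelial TEK were below 0.1 CPM. The summed list level ran from 715 to 752 CPM over the 4 libraries. KRT8 was lowest in library 1 at 154 CPM and highest in library 4 at 187 CPM.

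The leukaemia list had 20 of 26 genes at 10 CPM or more, a level reached by 9124 of all 17786 genes in the table. CRKL, an adaptor that BCR-ABL1 phosphorylates, had 795 ± 24.6 CPM, and the genes joined in the fusion, ABL1 and BCR, had 238 ± 1.68 and 127 ± 3.64 CPM. Counts per gene do not separate the fusion from the normal transcripts. PIM1, a kinase induced by STAT5, had 383 ± 6.38 CPM and MYC 238 ± 18 CPM. Among survival genes, MCL1 (312 ± 6.67 CPM) and BCL2L1 (99.3 ± 12.6 CPM) were expressed, BCL2 was low at 2.13 ± 0.177 CPM and BCL2A1 had 0 counts. CDKN1A, an inhibitor of cell cycle kinases, had 4.04 ± 0.564 CPM. Of the cancer and testis antigens, silent in most adult tissues, 13 of 19 had at least 10 CPM, against 9124 of all 17786 genes. PRAME had 304 ± 9.17 CPM and MAGEA3 162 ± 5.32 CPM, whereas MAGEA4 had 8 counts. MAGEA3 and MAGEA6 are close copies, as are the GAGE genes, so their separate values are uncertain.

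A stretch of the short arm of chromosome 9 was described gene by gene. Between ACER2, a ceramidase gene at 3.82 ± 0.477 CPM, and CAAP1 at 32.4 ± 1.48 CPM, 7.43 megabases apart in the GENCODE 29 annotation, 4 genes were measured and 3 of them were below 1 CPM. Of 23 other genes measured on either side, 6 were below 1 CPM, as were 30.1% of all genes in the table. SLC24A2, MLLT3 and FOCAD had 0.468 ± 0.138, 0.265 ± 0.282 and 0.696 ± 0.185 CPM. MTAP, which salvages methionine, had 2.71, 3.29, 3.37 and 3.65 CPM, the highest of the 4. CDKN2A and CDKN2B were not analysed here. Just outside, the ribosomal protein gene RPS6 had 835, 807, 779 and 885 CPM. As background, K562 is known to have lost DNA of this region. DNA was not measured here, and its part in these counts was not tested.

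**Figure D4:**
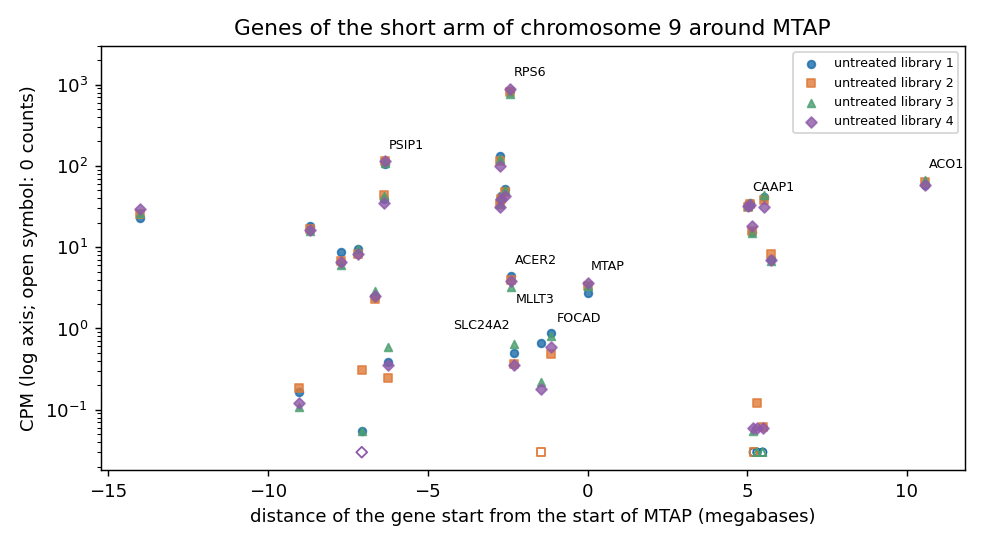
CPM (log vertical axis, 1 symbol per untreated library, open symbols for 0 counts) against the distance of each gene start from that of MTAP in megabases. From SLC24A2 to MTAP no gene exceeds 3.65 CPM, while RPS6 before ACER2 and CAAP1 beyond the gap are higher, and 6 of the 23 other genes shown lie below 1 CPM.

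Near the beta-globin cluster, 2 olfactory receptor genes stood above most of their class. OR51B5 had 148, 140, 145 and 122 CPM and OR51B4 35.4, 29.1, 31.9 and 33.9 CPM. Of 87 protein-coding olfactory receptor genes measured, 8 had at least 10 CPM, with a median of 0.757 CPM. Among all 17786 genes in the table, 9124 had at least 10 CPM, with a median of 11.4 CPM. The annotation of OR51B5 overlaps HBE1 and HBG2 on the same strand, so its counts cannot be told apart from reads of longer globin-cluster transcripts.

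Paralogue choice was described in 70 families of metabolic genes, 59 of which had at least 2 measured members with a length. In 34 of the 59 a single member held at least 80% of the family's summed CPM per kilobase, in 26 at least 90% and in 10 at least 99%. In 11 the leading member held less than 60%. The leading gene was the same in all 4 libraries in 58 families. The shares depend on the transcript length: in 38 of the 59 families the first or second share moved by over 1.5 times under at least 1 of the other lengths.

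**Figure D5:**
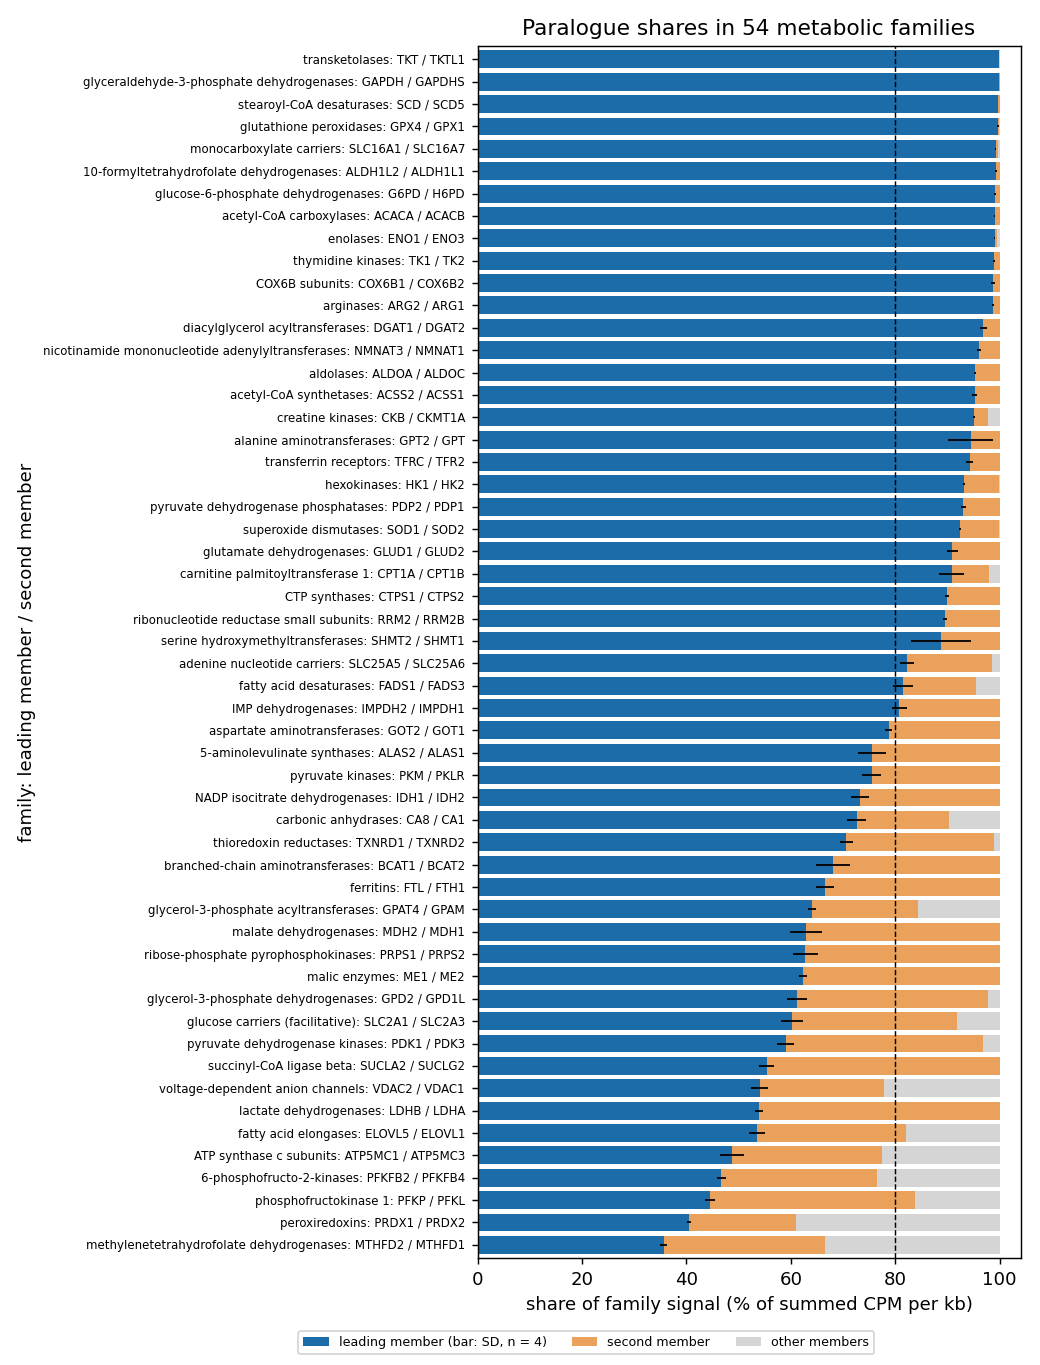
Share of the summed CPM per kilobase held by the leading member (blue, with the SD of 4 libraries), the second member (orange) and the others (grey) in 54 of the families, ordered by the leading share, with a dashed line at 80%. Blue passes the dashed line in 30 of these, from TKT at the top down to IMPDH2.

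In glycolysis, 5 of 10 families had a member at 80% or more. HK1, the general hexokinase, had 719, 700, 694 and 696 CPM and 93.2% ± 0.216 of the hexokinase signal, ahead of HK2 at 6.75% ± 0.21. GAPDH gave 99.9% ± 0.0239, ENO1 99.03% ± 0.0758 and ALDOA 95.4% ± 0.217 of their families. Pyruvate kinase was split: PKM, the form of most tissues, gave 75.5% ± 1.8 and PKLR, the liver and red cell form, 24.5% ± 1.8. With merged exons as the length, PKLR gave 44.45% and PKM 55.55%. PKLR had 135, 138, 155 and 163 CPM in libraries 1 to 4, against an even 499, 505, 491 and 498 CPM of PKM. Lactate dehydrogenase, which interconverts pyruvate and lactate, came from both chains, with LDHB at 53.9% ± 0.83 and LDHA at 46.1% ± 0.83 per kilobase. Without length scaling LDHB fell to 42.7%, so their order is not settled. SLC16A1, the lactate and pyruvate carrier, gave 99.3% ± 0.0933 of the 3 monocarboxylate carriers measured, and SLC2A1 gave 60.3% ± 2.13 of the glucose carriers with SLC2A3 at 31.6% ± 2.04.

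In the citric acid cycle and its branches leadership was looser, with 2 of 8 families at 80% or more. PDP2 gave 93.1% ± 0.535 of the phosphatases that switch on pyruvate dehydrogenase. Of the kinases that switch it off, PDK1 gave 59.02% ± 1.6 and PDK3 37.9% ± 2.1, at a summed level of only 3.59 CPM per kilobase. PDK1 gave 76.1% with the longest transcript, 77.0% with merged exons and 90.9% without length scaling. The cytosolic IDH1 gave 73.2% ± 1.69 over the mitochondrial IDH2, and SUCLA2 and SUCLG2, which link the cycle to ATP and GTP, gave 55.4% ± 1.42 and 44.6% ± 1.42. The order of the last 2 turned with the longest or the merged transcript length.

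For amino acids and folate, the mitochondrial form led in several families. GPT2 gave 94.5% ± 4.3 of the alanine aminotransferases at a summed level of only 3.38 CPM per kilobase, GOT2 78.7% ± 0.726 of the aspartate aminotransferases, ARG2 98.7% ± 0.207 of the arginases and ALDH1L2 99.3% ± 0.257 of the formyltetrahydrofolate dehydrogenases. BCAT1, the cytosolic branched-chain aminotransferase, led BCAT2 at 68.1% ± 3.28. SHMT2, the mitochondrial serine hydroxymethyltransferase, gave 88.8% ± 5.73. Without library 4 its mean share was 86.0%. This spread came from SHMT1, with 32.8, 31.4 and 32.5 CPM in libraries 1 to 3 and 5.44 CPM in library 4. SHMT2 itself stayed at 203, 206, 202 and 212 CPM. For DNA precursors, TK1 gave 98.96% ± 0.163 and RRM2 89.5% ± 0.423 of their families, both forms tied to dividing cells. NMNAT3, which makes NAD in the mitochondrion, gave 96.1% ± 0.311 over NMNAT1, at 189 ± 7.03 CPM.

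In lipid metabolism a single member held at least 80% in 6 of 8 families. SCD gave 99.7% ± 0.0278 of the stearoyl desaturases, ACACA 99.04% ± 0.142 of the acetyl-CoA carboxylases, ACSS2, the cytosolic acetyl-CoA synthetase, 95.2% ± 0.504 and FADS1 81.5% ± 1.99 of the fatty acid desaturases. CPT1A gave 90.8% ± 2.33 of the enzymes that commit fatty acids to oxidation.

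A single member held at least 80% in 3 of 8 haem, iron and redox families and in 3 of 3 energy families. TFRC gave 94.3% ± 0.659 of the transferrin receptors over TFR2, and SOD1 92.5% ± 0.213 of the superoxide dismutases. Without length scaling SOD1 gave 45.9% and SOD2 led. GPX4 gave 99.6% ± 0.188 of the glutathione peroxidases, while GPX1, which is abundant in red cells, had 32 counts under the identifier that carries its symbol. CA8, a carbonic anhydrase relative without the usual activity, gave 72.6% ± 1.88 of its family and CA1 17.6% ± 1.47. CKB, the brain form of creatine kinase, gave 95.1% ± 0.224 at 325 ± 20.3 CPM. The 6 peroxiredoxins were shared more widely, with PRDX1 at 40.5% ± 0.346 and PRDX2, the red cell form, at 20.5% ± 0.923. For the ATP synthase c chains, which encode the same mature protein, ATP5MC1 led at 48.7% ± 2.33 per kilobase, but ATP5MC3 led under every other length.

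Spread between the libraries was small for most genes. Among 9124 genes with a mean of at least 10 CPM the median coefficient of variation (SD over mean) was 5.82%, and 4.64% after counting error was removed. It was 2.68% without library 4. Only 42 genes exceeded 50%, of which 21 had no symbol and 18 had a library at 0 counts. Of all 9124 genes, 297 had no symbol and the same 18 had a library at 0 counts. A library at 0 puts a gene above 50% whatever its other values, so that count is no separate result. BTBD7 had the largest value among named genes, with 44.5, 3.59, 14.4 and 3.17 CPM. VARS1, the valyl-tRNA synthetase, had 0, 45.3, 73.2 and 68.6 CPM, and FAM83H, an organiser of keratin filaments, had 87.7, 0, 91.5 and 120 CPM. TNXB, GAGE2E, PANK4, LPCAT1, CDK7, CORO7 and SMIM11B completed the 10, with values above counting error of 72.8% (SMIM11B) to 110% (TNXB). The 869 identifiers outside the annotation used held 1.80% ± 0.0486 of the counts. Whether the counts that these genes lack in single libraries lie there was not tested.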

How the data were processed

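Messenger RNA of K562 cells was measured in 12 libraries, of which the 4 untreated ones are described. The authors deposited 1 table of estimated counts by gene. Salmon 1.2.1, DESeq2 1.26.0 and R 3.6.3 appear in the submitters' processing notes. Neither build nor annotation is given in those notes or the labels, and tool settings are likewise not given in the sources used here. All values were whole numbers, so rounding changed none. The table has 17786 gene identifiers with a total of at least 10 over the 12 libraries.

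Levels are CPM of the plain library total, since a share of the library was wanted and no group was compared. CPM per kilobase used the principal transcript of GENCODE 29, where 16917 identifiers had a length. Symbols matched for 16112 identifiers. Values without a symbol were kept in totals but not named. Groups came from the sample labels. Errors are SD over 4 libraries. The variation above counting error subtracts the Poisson variance, and its calculation was tested on simulated data. No test between groups was made. Promoter windows came from RefSeq, build GRCh38.p14.

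Genes named were the 20 highest by CPM and by CPM per kilobase, the 4 highest and those below 0.1 CPM in each of 22 gene lists, the first 2 of each of 70 families, the 10 with the largest variation and the marker genes, some of which are not reported here. Another 41 genes, such as BCL11A, HBB and CD34, were named after their values were seen. The members and lists were chosen with earlier results of these data known. Alternatives used edgeR 4.0.16 (TMM factors) and DESeq2 1.42.0 (size factors) in R 4.3.3, other lengths, thresholds and leaving out each library. The list of 17 long non-coding RNAs had 0 measured genes. The B cell list was summed at 11.3 ± 1.79 CPM and the T and NK cell list at 12.0 ± 1.2 CPM.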

Additional observations from a re-analysis of the deposited data

Results flagged for a closer look

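In 22 of 355 values checked (6.2%), a single library stood apart from the other 3 by more than Dixon's 95% limit for 4 samples. The limit is set to flag about 1 in 20 such groups of 4 by chance. The 355 values include shares built from genes that were also checked, so they are not independent. Whether chance gave these flags was not tested. Library 4 was the distant one in 13 of the 22, library 1 in 4, library 3 in 3 and library 2 in 2.

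SHMT1, the cytosolic serine hydroxymethyltransferase, had 5.44 CPM in library 4 against 31.4 to 32.8 CPM in the others. The share of SHMT2 in its family was accordingly 97.4% there against 85.7% to 86.4%. SHMT2 led its family in all 4 libraries.

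Library 4 was low for GP6, the platelet collagen receptor, at 9.21 CPM (others 11.9 to 12.2), for LDHA at 937 CPM (others 1004 to 1016) and for BCAT1 at 451 CPM (others 521 to 528). FECH had 266 CPM there (others 279 to 282) and LIN28B 221 CPM (others 256 to 260). IDH1 was low there at 110.2 CPM (others 120.0 to 120.4), and so was its share of the NADP isocitrate dehydrogenases, at 70.7% (others 73.8% to 74.3%). Library 4 was high for GAGE2A at 118 CPM (others 85.2 to 87.5), PYCR1 at 217 CPM (others 192 to 194), COX6B1 at 71.4 CPM (others 42.6 to 47.4) and TFR2 at 128.5 CPM (others 118.8 to 119.8).

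Library 1 was high for EEF1A1 at 10530 CPM (others 10357 to 10380), NR2C2 at 193 CPM (others 176 to 177) and ATP5MC3 at 473 CPM (others 419 to 422). It was also high for ITGAM at 0.718 CPM (others 0 to 0.122), a gene near the limit of detection. Library 2 was high for DGAT2 at 1.64 CPM (others 1.02 to 1.10) and PECAM1 at 8.1 CPM (others 6.13 to 6.16). Library 3 was high for SLC25A37 at 346 CPM (others 315 to 320), TAL1 at 240 CPM (others 230 to 231) and SLC16A7 at 4.4 CPM (others 3.35 to 3.42).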

How the results depend on the processing

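No paired analysis was possible because only 1 group was described and no test between groups was made. The scalings tried (TMM over the 4 libraries, TMM over all 12, DESeq2 size factors) left every result they were run on within its spread. The number of genes with at least 1 CPM in all libraries was 11827 under each of them, 12555 at 0.5 CPM, 9938 at 5 CPM and 11912 to 11932 with 1 library left out. Transcript length mattered for the globins: the share of HBG1 and HBG2 was 80.2% with the longest transcript, 77.7% with merged exons and 79.3% with no length scaling, against 84.0%. The share of HBZ was 24.3%, 28.4% and 26.6%, against 21.7%. Leaving out 1 library gave 83.8% to 84.2% and 21.1% to 22.2%. Families led at 80% or more numbered 34 without any 1 library, 32 to 33 of 59 under other lengths, 26 at a threshold of 90% and 31 of 55 with a summed mean of at least 10 CPM per kilobase. Another member led in 2 families with the longest transcript, 2 with merged exons and 4 with no length scaling. The 10 most abundant genes held 4.15% of counts when mitochondrially encoded genes were left out, and 5.29% to 5.67% with 1 library left out. The median variation above counting error was 2.68% without library 4 and up to 5.03% without library 2. Of 177 leading shares recomputed with another length, 120 moved by more than 1 SD, and 5 of the 59 families had a leading share that moved by over 1.5 times. Depth limits genes below about 0.1 CPM.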

Other observations

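Histone genes were split in a library made from poly(A)-selected RNA. As background, mRNAs of replication-dependent histones end in a stem-loop in place of a poly(A) tail, while variant histones have a tail. Of 16 measured histone genes, 10 had at least 10 CPM, against 9124 of all 17786 genes in the table. The variants H3-3A, H3-3B and H2AZ1 had 706 ± 31.8, 522 ± 26.9 and 659 ± 61.6 CPM. Among the replication-dependent genes, the linker histone gene H1-2 had 770, 751, 715 and 710 CPM and H2BC12 had 254, 258, 263 and 307 CPM, while H1-3 had 1.63 ± 0.485 CPM and H4C3 0.416 ± 0.261 CPM. Per kilobase H1-2, at 1147 ± 45 CPM per kilobase, stood above H3-3A at 540 and H2AZ1 at 673. Which ends these transcripts had was not tested.

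Of 3 measured genes of HLA class II presentation, none had 10 CPM or more, against 9124 of all 17786 genes in the table. Their regulator CIITA had 3.66 ± 0.772 CPM, CD74 had 0.288 ± 0.104 CPM and HLA-DOB had 0, 1.22, 2.28 and 0 CPM, so that HLA-DOB was at 0 counts in libraries 1 and 4. Whether its counts lie on identifiers outside the annotation used was not tested.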
